A study of Astragalus chrysochlorus with 2 samples.

Results

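A defensin, a chitinase, a thaumatin-like protein and a NIM1-interacting protein are described here across the callus transcriptome of Astragalus chrysochlorus, a legume that accumulates selenium. They are 4 of the 82566 unigenes (assembled transcripts) in the deposited table. They were picked by name from the 972 unigenes whose matches to proteins of other species are given with the study. All 972 had passed the study's stricter thresholds in the same 2 libraries, so the ratios below chose the members and are given as a description, with no test.

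The Se-treated library came from long-term callus, an undifferentiated tissue culture, that was 21 days old when moved to MS medium and stayed there for 3 weeks with sodium selenate at 5 mg/L. The Control library came from callus on the medium without selenate, and both media held 0.5 mg/L of the auxin 2,4-D. Cultures were kept in triplicate, and whether these were pooled is not stated in the sources used here. There is 1 library per condition, so no difference below has a replicate check. The Se-treated library had fragments for 81161 unigenes and the Control library for 81479, with a median of 21 and 22 fragments per unigene and a total of 16.7 (in units of 1000000 fragments) in each. Names exist here only for unigenes past the thresholds, so the callus label could not be checked against markers.

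Plants answer microbes partly with small secreted proteins. Defensins are short cysteine-rich peptides that act against fungi, chitinases cut the chitin of fungal walls, and thaumatin-like proteins form the PR-5 family of pathogenesis-related (PR) proteins. In Arabidopsis many PR genes are switched on through NPR1, also called NIM1, a co-activator that responds to salicylic acid, and NIM1-interacting proteins bind it and modulate its output. Selenate shares the uptake route of sulfate in plant roots and cells.

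The 3 secreted protein types did not differ in one direction. The defensin and the chitinase were lower in the Se-treated library, the thaumatin-like protein was higher, and the NIM1-interacting protein was lower. Each differed about 4-fold between the libraries. Levels are given in FPKM (fragments scaled by unigene length and by the fragments of the library), which allows comparison between unigenes of different length. Intervals are exact 95% intervals for counting error only. In RNA from whole callus, fewer cells of a type and less RNA per cell cannot be told apart.

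The defensin (CL5322.Contig1_All, 579 nt) had 331 fragments in the Se-treated library, against 1331 fragments in the Control library. Its level was 34.2 FPKM (30.6 to 38.1) in Se-treated callus and 137 FPKM (130.1 to 145.0) in Control callus. This was 4.01-fold lower (3.56 to 4.54), a log2 ratio of -2.01 (-2.18 to -1.83). It was the most abundant of the members in both libraries. By level it ranked 4428 among all unigenes in Se-treated callus and 1026 in Control callus. In absolute terms its level fell by 103 FPKM, the largest difference among the members. Other identifiers are given below without the ending that they share. The defensin is the only contig of its cluster in the table, so the sum over its cluster gives the same ratio.

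The chitinase (Unigene489_All, 1048 nt) had 54 fragments in the Se-treated library, against 239 fragments in the Control library. Its level was 3.09 FPKM (2.32 to 4.03) in Se-treated callus and 13.6 FPKM (12.0 to 15.5) in Control callus. It was thus 4.42-fold lower (3.28 to 6.05), a log2 ratio of -2.14 (-2.60 to -1.71). This unigene had the fewest fragments of the members and hence the widest interval. In Control callus its level lay above that of 87.5% of all unigenes, and in Se-treated callus above that of 59.7%.

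The thaumatin-like protein (Unigene13993_All, 928 nt) had 369 fragments in the Se-treated library, against 87 fragments in the Control library. Its level was 23.8 FPKM (21.4 to 26.4) in Se-treated callus and 5.60 FPKM (4.49 to 6.91) in Control callus. It was 4.25-fold higher (3.36 to 5.43), a log2 ratio of 2.09 (1.75 to 2.44). It was the only member with more fragments in the Se-treated library. Its rank by level was 6289 among all unigenes in Se-treated callus and 20569 in Control callus.

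The NIM1-INTERACTING 2-like protein (Unigene19916_All, 595 nt), the regulator among the members, was matched to a grapevine protein. It had 122 fragments in the Se-treated library, against 505 fragments in the Control library. Its level was 12.3 FPKM (10.2 to 14.7) in Se-treated callus and 50.7 FPKM (46.4 to 55.4) in Control callus. It was 4.13-fold lower (3.38 to 5.08), a log2 ratio of -2.05 (-2.34 to -1.76). Its level lay above that of 86.3% of all unigenes in Se-treated callus and 96.3% in Control callus.

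**Figure D1:**
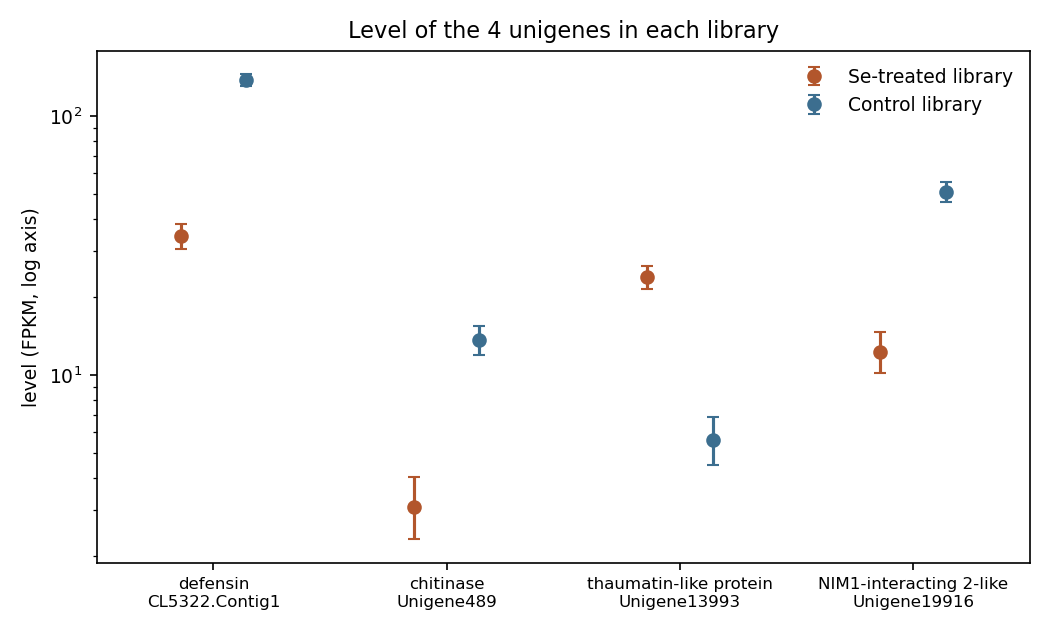
Level in FPKM on a log axis of the 4 unigenes in the Se-treated (left point of each pair) and Control libraries, with bars for exact 95% Poisson intervals of the fragment counts. The defensin, the chitinase and the NIM1-interacting protein sit lower in Se-treated callus, and the thaumatin-like protein sits higher (23.8 against 5.60 FPKM).

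The order of the members by level differed between the libraries. In Se-treated callus it was the defensin, the thaumatin-like protein, the NIM1-interacting protein and the chitinase, and in Control callus it was the defensin, the NIM1-interacting protein, the chitinase and the thaumatin-like protein. Within each library the counting intervals of neighbours in this order did not overlap. The defensin had 1.44 times the level of the thaumatin-like protein in Se-treated callus, against 24.5 times in Control callus. The thaumatin-like protein had 7.72 times the level of the chitinase in Se-treated callus, whereas in Control callus the chitinase had 2.43 times the level of the thaumatin-like protein.

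Among the lower members these proportions of level were nearly kept. The defensin had 11.1 times the level of the chitinase in Se-treated callus and 10.1 times in Control callus. Relative to the NIM1-interacting protein it had 2.79 times the level in Se-treated callus and 2.71 times in Control callus. The log2 ratio of the defensin minus that of the chitinase was 0.14 (-0.32 to 0.60, counting interval from a normal approximation), and minus that of the NIM1-interacting protein 0.04 (-0.29 to 0.38). Between the chitinase and the NIM1-interacting protein the difference in log2 ratio was -0.10 (-0.61 to 0.42). These intervals include 0 but leave room for differences of up to 0.61 on the log2 scale. All 3 ratios had been chosen past the same threshold, so that their closeness is partly set by that choice. Summed over the 3 lower members, the level was 49.6 FPKM in Se-treated callus and 202 FPKM in Control callus, and the defensin made up 69.0% and 68.1% of these sums.

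Calls needed a log2 ratio of 2 or more in size together with a false discovery rate (FDR) no greater than 0.001. The methods of the study state this FDR with a log2 ratio of 1, and the stricter ratio of 2 is the one that its named unigenes passed. The FDR came from the Audic-Claverie test, two-sided, on the fragments of each unigene, which compares the libraries and not the conditions. Over the whole table, 912 unigenes (1.10%) were called lower and 1311 (1.59%) higher in Se-treated callus. All 4 members were called, as the way they were chosen required. At a log2 ratio of 1 or more in size, 4.65% of all unigenes were called lower and 5.50% higher. Of the 972 named unigenes 31.8% were called lower and 68.2% higher. The sparsest member had 293 fragments over both libraries. Of the 14461 unigenes with at least that many, 0.512% were called lower and 1.43% higher. The median log2 ratio of all unigenes was -0.09.

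The members lay close to the 4-fold threshold. The interval of all 4 lay wholly beyond a 2-fold difference, and that of 0 lay wholly beyond 4-fold. The first count was largely set by choosing the members past 4-fold. The share of all unigenes with such intervals was not computed. The defensin was the second nearest of all lower calls to the threshold. Just inside it with a log2 ratio of -2.003 was a SWEET12-like sugar transporter (Unigene29960), with 374 fragments in the Se-treated library and 1502 in the Control library. Just outside stood Unigene9761 and 2 others at -1.998, which have no name here. The defensin itself had -2.005. On the higher side an SRG1-like protein (Unigene2506) was just inside at 2.002, and Unigene13164 was just outside with 998 fragments in the Se-treated library and 250 in the Control library. When the ratios were recentred on the median of well-counted unigenes (-0.03), the log2 ratio of the defensin was -1.97 and 3 of the members stayed past the threshold. With TMM factors, which shift every ratio by 0.08, the defensin had -1.92 and the NIM1-interacting protein -1.97, and only the chitinase (-2.06) and the thaumatin-like protein (2.17) stayed past it. With 1 FPKM added to both libraries 0 of the members reached a log2 ratio of 2 in size, the chitinase having -1.84 and the thaumatin-like protein 1.91. No direction changed under any of these settings.

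**Figure D2:**
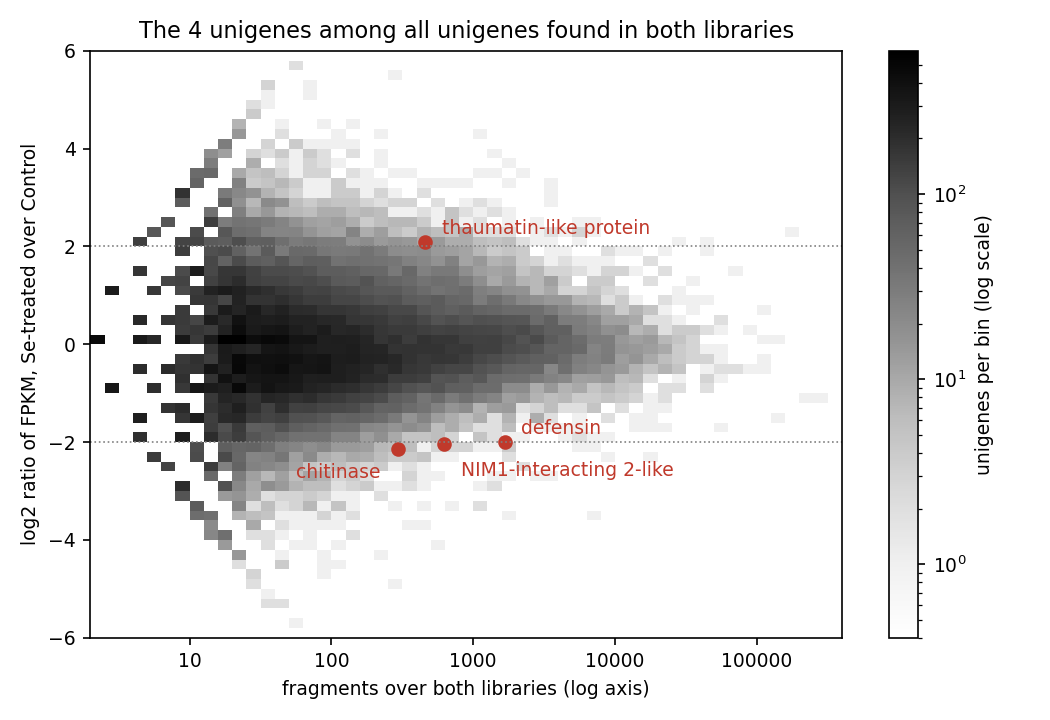
Log2 ratio of FPKM, Se-treated over Control, against the fragments over both libraries (log axis) for all unigenes found in both, as shaded bins, with the 4 unigenes as red points and dotted lines at -2 and 2. The members lie right beside the dotted lines, at 293 to 1662 fragments, the 3 lower ones where bins are sparse.

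Beside unigenes of like depth, with fragments over both libraries within 2 times those of the member, the ratios of the members were near the ends of the range. As low a log2 ratio as that of the defensin was found in 19 of 5347 such unigenes, and for the NIM1-interacting protein in 44 of 8715. For the chitinase the number was 82 of 12467. As high a ratio as that of the thaumatin-like protein was found in 132 of 10125. These counts come from the contrast that chose the members and are given as a description only.

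Among the other named unigenes, the closest relatives by name lay on the same side as the members. The acidic endochitinase (Unigene33300), also a chitin-cutting enzyme, had 2 fragments in the Se-treated library and 24 in the Control library, a log2 ratio of -3.58 (-6.71 to -1.57). The thaumatin-like protein 1-like unigene (Unigene8345) had 72 fragments in the Se-treated library and 16 in the Control library, a log2 ratio of 2.17 (1.38 to 3.05). Summed over both chitin-cutting enzymes there were 56 fragments in the Se-treated library and 263 in the Control library, a log2 ratio of -2.23 (-2.67 to -1.81). Summed over both thaumatin-like unigenes there were 441 fragments in the Se-treated library and 103 in the Control library, a log2 ratio of 2.101 (1.79 to 2.42). Most of these fragments were those of the members, with 54 and 239 from the chitinase and 369 and 87 from the thaumatin-like protein. Both unigenes of each pair had been chosen past the threshold on the same side. Each sum therefore had to lie past it too and is no separate evidence. Chitinases and thaumatin-like proteins form families of similar genes, and the mapping placed a read with several equal matches at random, so fragments can be split among relatives. Family members that did not pass the thresholds carry no name here and were not counted.

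Of 12 other PR-type and related secreted proteins, 7 were lower and 5 higher in Se-treated callus. That is set beside 31.8% lower and 68.2% higher of the 972 named unigenes from which the list was drawn, and 1.10% and 1.59% of all unigenes. Their median log2 ratio was -2.41 (-1.56 with 1 FPKM added), beside -0.09 over all unigenes (-0.04 with 1 FPKM added). The list holds only unigenes that had passed the thresholds in these libraries, so its median had to lie past the threshold on the side with more members, and its counts are not independent evidence of a direction. Snakin-1-like (Unigene33769), an antimicrobial peptide like the defensin, had 4 fragments in the Se-treated library and 27 in the Control library (log2 ratio -2.75, -4.73 to -1.23). Both germin-like proteins (Unigene33387 and Unigene31807), of a family of secreted wall-associated proteins, were lower, with log2 ratios of -3.20 and -2.61. A serine protease inhibitor (CL9430.Contig2) had -2.68. Both non-specific lipid-transfer proteins, which bind lipids outside the cell, were higher, with log2 ratios of 2.48 (CL4004.Contig1) and 2.15 (Unigene18674). So was a beta-glucan-binding protein (CL5821.Contig1, 97 fragments in the Se-treated library and 21 in the Control library), of a kind that in soybean binds glucan fragments of pathogen walls.

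The 3 named peroxidases, enzymes of wall cross-linking and of PR type, were also split. Unigene13943 had 685 fragments in the Se-treated library and 169 in the Control library, a log2 ratio of 2.02 (1.78 to 2.27). Unigene28577 had 45 fragments in the Se-treated library and 324 in the Control library (-2.85, -3.33 to -2.39). The cationic peroxidase 1-like contig (CL6761.Contig2) had -2.20, but its cluster of 2 contigs had -0.71. The clusters of CL4004.Contig1 (0.77) and CL9430.Contig2 (-0.92) likewise had log2 ratios under 1 in size, so that contigs of one cluster can differ more than the whole.

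Named as SUPPRESSOR OF npr1-1, CONSTITUTIVE 1-like were 2 unigenes, after an immune receptor that in Arabidopsis acts upstream of salicylate signalling. They went opposite ways, and their names alone do not show a link to the NIM1-interacting protein. Unigene42489 had 23 fragments in the Se-treated library and 1 in the Control library, a log2 ratio of 4.53 (1.90 to 9.89). CL10021.Contig1 had 7 fragments in the Se-treated library and 31 in the Control library (-2.14, -3.57 to -0.93), and its cluster had -0.96. Of 4 named WRKY factors, a family that controls many defence genes, 3 were lower and 1 was higher, where 31.8% of all named unigenes were lower and 68.2% higher. The well-counted ones were Unigene16824, with 273 fragments in the Se-treated library and 1336 in the Control library (-2.29), and WRKY32 (Unigene3268), with 181 fragments in the Se-treated library and 40 in the Control library (2.18). WRKY28-like (Unigene30532) had 1 fragment in the Se-treated library and 38 in the Control library. Unigene34988 had 0 fragments in the Se-treated library and 21 in the Control library, at least 5.20-fold lower by its counting interval and 6.99-fold lower with 3 fragments in place of 0, which takes the Control count as exact. The median log2 ratio of the WRKY factors was -2.55 with that floor. WRKY28-like and Unigene34988 also lie among assembly numbers where most unigenes were lower, as given below. All named WRKY factors had passed the thresholds in these libraries, so their counts are not independent evidence of a direction. No unigene is named as NPR1 or PR-1 here.

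**Figure D3:**
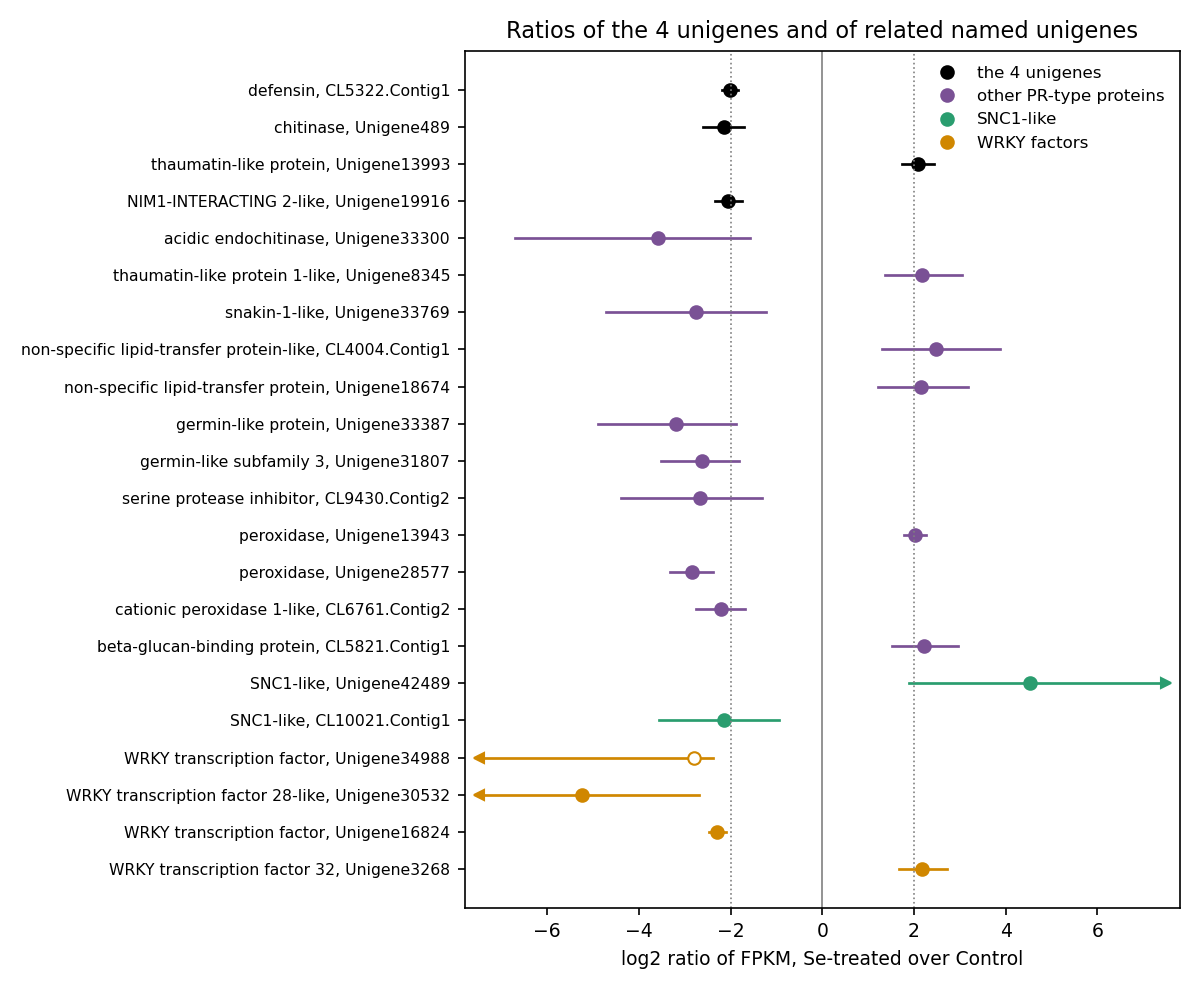
Log2 ratio of FPKM, Se-treated over Control, of the 4 unigenes (black, top) and of 18 other listed unigenes. Lines are exact 95% counting intervals, with arrowheads where an interval leaves the axis. Dotted lines mark -2 and 2, and an open point marks the 3-fragment floor where the Se-treated count was 0. Of these 18, 11 lie on the lower and 7 on the higher side, beside 31.8% lower and 68.2% higher of all named unigenes. All 18 had passed the thresholds in these libraries. Their intervals are mostly wider than those of the members.

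The direction of unigenes outside clusters varied with their assembly number, and the members were read against this. Among the unigenes numbered within 500 of the chitinase, 48.3% were higher in the Se-treated library. For the thaumatin-like protein the share was 37.6%, and for the NIM1-interacting protein 40.6%. The thaumatin-like protein was higher where most of its neighbours by number were not. This was also so for the other listed unigenes with a number that were higher, except Unigene42489. Neighbours were counted by the sign of their ratio only, whatever its size. The median log2 ratio of all unigenes was -0.09, so over the whole table, too, more unigenes were lower than higher. Of the other listed unigenes, 6 had neighbours of which under 30% were higher, and all 6 were themselves lower. They are the acidic endochitinase (15.3%), snakin-1-like (4.40%), both germin-like proteins and the sparse WRKY factors Unigene30532 (27.2%) and Unigene34988 (2.3%). Around Unigene42489, which was higher, 98.0% were higher. What sets the link between number and direction was not tested.

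**Figure D4:**
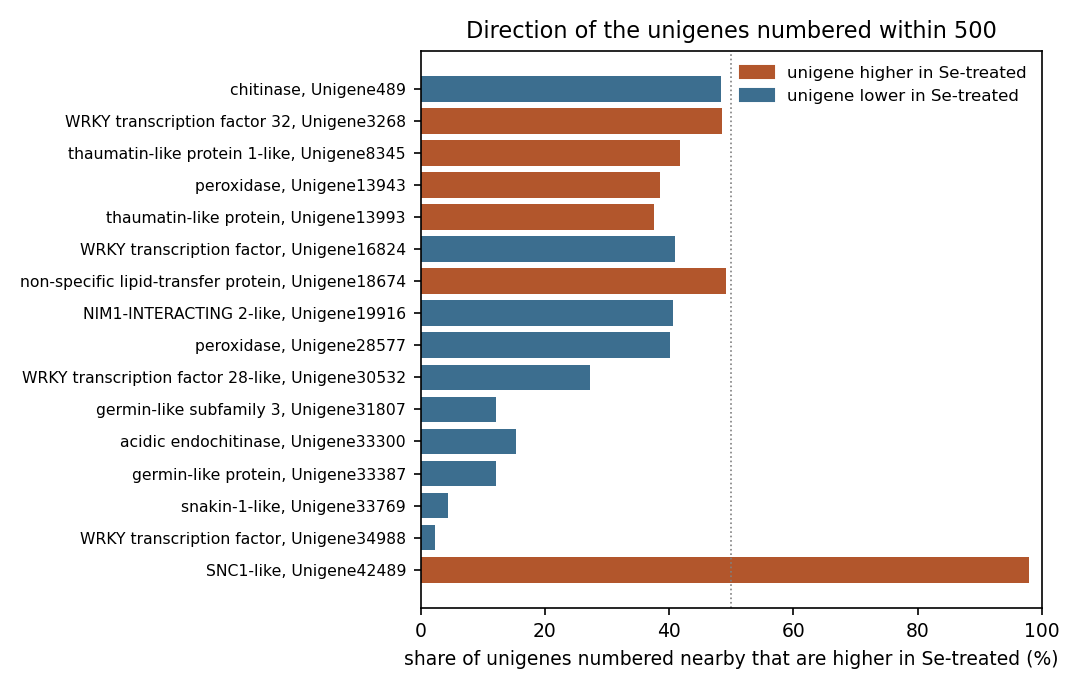
Share in percent of the unigenes numbered within 500 of each listed unigene that were higher in the Se-treated library, ordered by number from the top, with the bar coloured by the direction of the unigene itself and a dotted line at 50%. The 3 members with a number (chitinase, thaumatin-like protein, NIM1-interacting protein) stand at 37.6% to 48.3%, and those from Unigene30532 on lie below 30% or, for Unigene42489, at 98.0%.

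The named unigenes with levels most like each member were found by the distance between their log2 FPKM values over the 2 libraries. For the defensin this was a flavonoid 3'-hydroxylase (Unigene1886, distance 0.53), a pigment-pathway enzyme with 32.6 FPKM in Se-treated callus and 198 FPKM in Control callus. A polyol transporter 5-like protein (CL5166.Contig3, 0.61) and a lipoxygenase (Unigene25277, 0.84) came next. The chitinase was nearest to a HAT family dimerization domain protein (Unigene31957, 0.17), a serine/threonine kinase named At5g01020-like (Unigene716, 0.20) and a phenylalanine ammonia-lyase (Unigene31527, 0.24).

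The thaumatin-like protein lay nearest to HASTY 1-like (Unigene12522, 0.07), an exporter of small RNAs in Arabidopsis, which had 22.9 FPKM in Se-treated callus and 5.47 FPKM in Control callus. A DEAD-box RNA helicase 21-like contig (CL192.Contig1, 0.08) and the chromatin remodeller PICKLE-like (Unigene23680, 0.08) followed. For the NIM1-interacting protein the nearest were a ubiquitin-activating enzyme E1 (CL7364.Contig2, 0.12), a MATE2 transporter (Unigene16618, 0.14) and a GTP-binding protein (Unigene10812, 0.29). With 2 libraries many unigenes can share a pattern, and the defensin, at a high level, had fewer close ones.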

How the data were processed

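RNA of callus was sequenced on the Illumina HiSeq platform as 1 library per condition, and samples were grouped by their labels. The authors removed low-quality reads, assembled unigenes with Trinity (20130225), TGICL (2.1) and Phrap (23.0) and mapped reads with SOAP (2.21). The deposited fragment counts are whole numbers, not normalized, and sum to the library totals in the header. The deposited FPKM column (a score without its decimal mark at values of 1 or more), and the other deposited columns, which hold the direction, P-value and FDR of the authors' comparison, were not used.

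FPKM, ratios, Poisson and binomial intervals and the Audic-Claverie calls (Benjamini-Hochberg over 82566 unigenes) were computed from the counts with Python 3.11.15, numpy 2.4.6, pandas 2.3.3 and scipy 1.17.1. The calls and ratio intervals were also run on simulated Poisson counts without spread between cultures. Such counts check the code only and cannot show how the calls hold for callus without replicates. An FPKM of 0 was replaced by 0.001 in ratios. With 1 library per condition no test of conditions was possible. Sequenced fragments are not independent molecules, so the intervals, like the floor of 3 fragments, reflect counting error alone.

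Names come from the study's table of 972 unigenes. The members and lists were chosen with earlier results of these data known. The text names the members, every listed unigene, the 3 nearest named unigenes of each member and those at the threshold, the last added after their values were seen. Alternatives were pseudocounts of 0.1 and 1 FPKM, recentring, TMM factors, an exact binomial test, a filter of 10 fragments, a log2 ratio of 1 and cluster sums. No unigene sequence was used here.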

Additional observations from a re-analysis of the deposited data

How the results depend on the processing

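The 4 log2 ratios kept their direction and stayed within their counting intervals with 1 or 0.1 FPKM added, with recentring and with TMM factors, and the cluster sum left that of the defensin as it was. Which members passed the threshold did depend on scaling. With TMM factors 2 were called in place of 4, 1 lower and 1 higher, and with recentring 3, since the defensin and then the NIM1-interacting protein lay nearest to the threshold. At a log2 ratio of 1, with the exact binomial test and with a filter of 10 fragments, 4 were called. Over the whole table, and always at a log2 ratio of 2, the lower calls ranged from 761 to 932 and the higher calls from 1225 to 1624 over the scalings, the binomial test and the filter. At a log2 ratio of 1 there were 3838 lower and 4539 higher calls. No paired analysis was possible because each condition has 1 library. For the same reason no library could be left out, and the spread between cultures is not known. The chitinase, with 54 fragments in the Se-treated library, is the member most limited by depth.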
